A study of Mus musculus with 7 samples.

Results

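The genes described here encode the mouse TGF-beta ligands (Tgfb1, Tgfb2 and Tgfb3), their cell-surface receptors (Tgfbr1, Tgfbr2 and Tgfbr3) and the latent TGF-beta binding proteins (Ltbp1, Ltbp2, Ltbp3 and Ltbp4). They are 10 of the 42689 genes measured, chosen by gene symbol, and all 10 passed the filter on low counts that left 16028 genes for testing. RNA was sequenced from hindlimb tendon, the tissue between the gastrocnemius insertion and the calcaneus, of mice on a C57BL/6 background, in a study of TAK1, a kinase that TGF-beta activates, and heterotopic ossification. Tenotomy libraries (n = 2) came from the left leg, at the site of an Achilles tenotomy, of mice that had also received a partial-thickness burn (60 °C for 18 s over 30% of the body surface), 3 weeks after injury; the injured mice were given buprenorphine. Contralateral libraries (n = 3) came from the uncut right leg of mice with the same burn and tenotomy at the same time, so these tendons were intact but the animals were not. Uninjured libraries (n = 2) came from mice with neither burn nor tenotomy, which the labels call WT; they give no genotype for the injured mice. No label gives the age or sex of the animals or says which libraries came from separate animals, so the p-values measure the spread between libraries, which may be partly technical.

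TGF-beta is secreted in a latent form. Its propeptide, cleaved by furin, stays wrapped around the mature cytokine, and disulphide bonds tie that propeptide to an LTBP, which anchors the complex to fibrillin and fibronectin in the matrix. Integrins, thrombospondin and proteases release the ligand, which binds the type II receptor (Tgfbr2), and this recruits and phosphorylates the type I receptor (Tgfbr1), which in turn phosphorylates Smad2 and Smad3. The co-receptor betaglycan (Tgfbr3) presents the ligand, Tgfb2 above all. In tendon the pathway is known for its role in tenocyte identity, matrix production and scarring, and in burn with tenotomy for its place in ectopic cartilage and bone formation.

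Total estimated counts ranged from 25927171 to 36725106 per library, of which the 5 most abundant features, among them Gm42418 and mt-Rnr2, held 76.4% to 81.4%. That left 4934057 to 8375626 counts for all other genes, so the members rest on modest numbers, from 32 to 1296 counts per gene and library. Levels compared between libraries are counts per unit of sequencing depth after TMM scaling (CPM). The uninjured libraries stood apart from each other. Uninjured library 1 lay nearer to the tenotomy mean in 9 of the 10 members and uninjured library 2 nearer to the contralateral mean in 10 of 10. For Tgfbr3 the tenotomy and contralateral means were almost equal, at 23.94 and 23.99 CPM, so nearness says little there. Nearness was not counted over all genes. Markers of other cells moved with this split of the uninjured libraries. Summed skeletal muscle markers were 7319 to 10030 CPM in the contralateral libraries, 870.0 to 875.9 CPM in the tenotomy libraries, 1076 CPM in uninjured library 1 and 7609 CPM in uninjured library 2. Macrophage and leukocyte markers summed to 22.3 to 29.1, 107 to 112, 113 and 28.5 CPM in the same order. Tendon fibroblast markers, which check the labelled tissue, were present everywhere, at 545.6 to 769.7 CPM in the contralateral and 2936 to 2951 CPM in the tenotomy libraries. Uninjured libraries 1 and 2 had 2700 and 2475 CPM, both near the tenotomy values. Most of each sum was Col1a1, so the sums mainly show that gene and not the list. Col1a1 was at 373 to 478 CPM in contralateral and 2565.5 and 2583.5 CPM in tenotomy libraries. It was at 2357 and 2214 CPM in uninjured libraries 1 and 2.

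Between tenotomy and contralateral tendon, 5 of the 10 members rose and 0 fell. These were Tgfb1, Tgfbr2, Ltbp1, Ltbp2 and Ltbp3, with changes from 1.89-fold (Ltbp1) to 2.80-fold (Ltbp2). They passed an adjusted p of 0.05 by the quasi-likelihood test of edgeR with Benjamini-Hochberg adjustment over all genes, the rule for "rose" and "fell" throughout. Of all genes tested, 13.6% passed in the same direction, 15.4% in the opposite one and 29% in either. At an unadjusted p under 0.05 stood 7 members, beside 43.3% of all genes. The median log2 fold change was 0.71 over the 10 members and -0.001 over all genes. In 8 members both tenotomy libraries lay above all 3 contralateral libraries, and in the other two, Tgfb2 and Tgfbr3, the groups overlapped; 31.9% of all genes had such a gap upward and 31.8% downward.

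**Figure D1:**
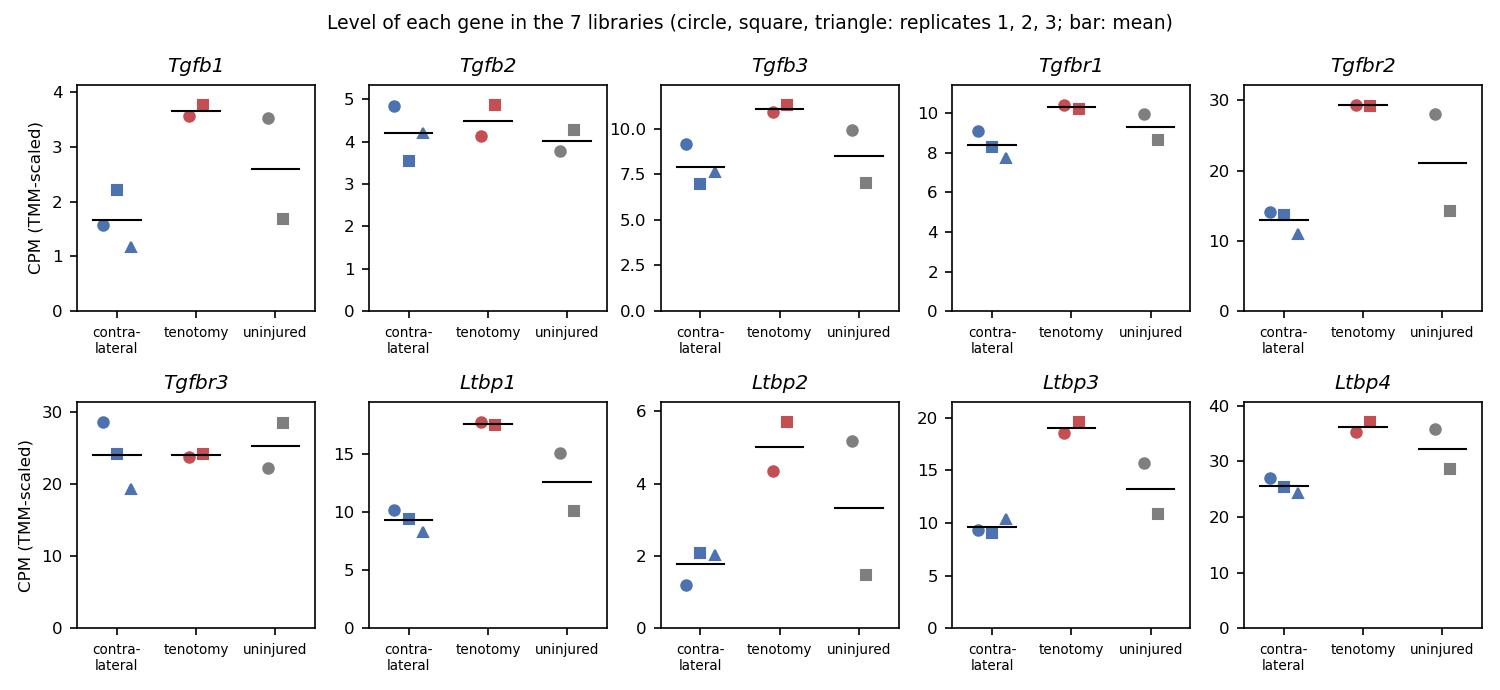
TMM-scaled CPM of each gene in the 7 libraries, by group, with symbols for replicates and a bar for the mean; each panel has its own linear axis from 0. Both tenotomy points lie above all contralateral points in 8 panels, and uninjured library 1 (circle) lies beside the tenotomy points for Tgfb1, Tgfbr2 and Ltbp2.

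The number of calls differed between fits. The median dispersion, the squared biological variation of a gene between libraries, was 0.0272 with all 7 libraries and 0.0087 with the tenotomy and contralateral libraries alone. With only the tenotomy and contralateral libraries in the fit, 8 of the 10 members rose (22.1% of all genes did, and 46.1% moved in either direction), the additional ones being Tgfb3, Tgfbr1 and Ltbp4. Leaving out any 1 contralateral or tenotomy library from the edgeR fit of all 7 left 0 members called and 0 of all genes, with 4 to 6 members at an unadjusted p under 0.05. In the fit without the uninjured libraries, the same omissions left 7 to 8 members called, beside 32.1% to 48.4% of all genes in either direction. Without uninjured library 1 or without uninjured library 2, 8 members were called, against 21% and 21.2% of all genes in that direction. The number in each sample title falls into 3 runs, which no label calls a batch. Within the run that holds all contralateral libraries and tenotomy library 1, the log2 differences of the 5 called genes were 0.93 for Ltbp1, 0.95 for Ltbp3, 1.12 for Tgfb1, 1.18 for Tgfbr2 and 1.31 for Ltbp2. Tenotomy library 2 shares its run with uninjured library 1, from which these genes differed by 0.06 to 0.32.

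Among the tissue markers, all 10 skeletal muscle genes were lower in tenotomy tendon, 9 of 10 macrophage and leukocyte genes were higher, and so were 7 of 7 cartilage genes, 4 of 8 tendon fibroblast genes and 4 of 5 proliferation genes. Over all genes tested, 13.6% were called higher and 15.4% lower in tenotomy tendon. None of the markers was at 0 in all libraries. Cartilage markers summed to 13.0 to 18.6 CPM in contralateral and 380.3 to 380.8 CPM in tenotomy libraries. They were not confined to tenotomy tendon, with 179.2 CPM in uninjured library 1 and 27.25 CPM in uninjured library 2. In whole tendon, more cells of a type and more RNA per cell cannot be told apart, and the part of these cell types in the changes of the TGF-beta genes was not tested.

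**Figure D2:**
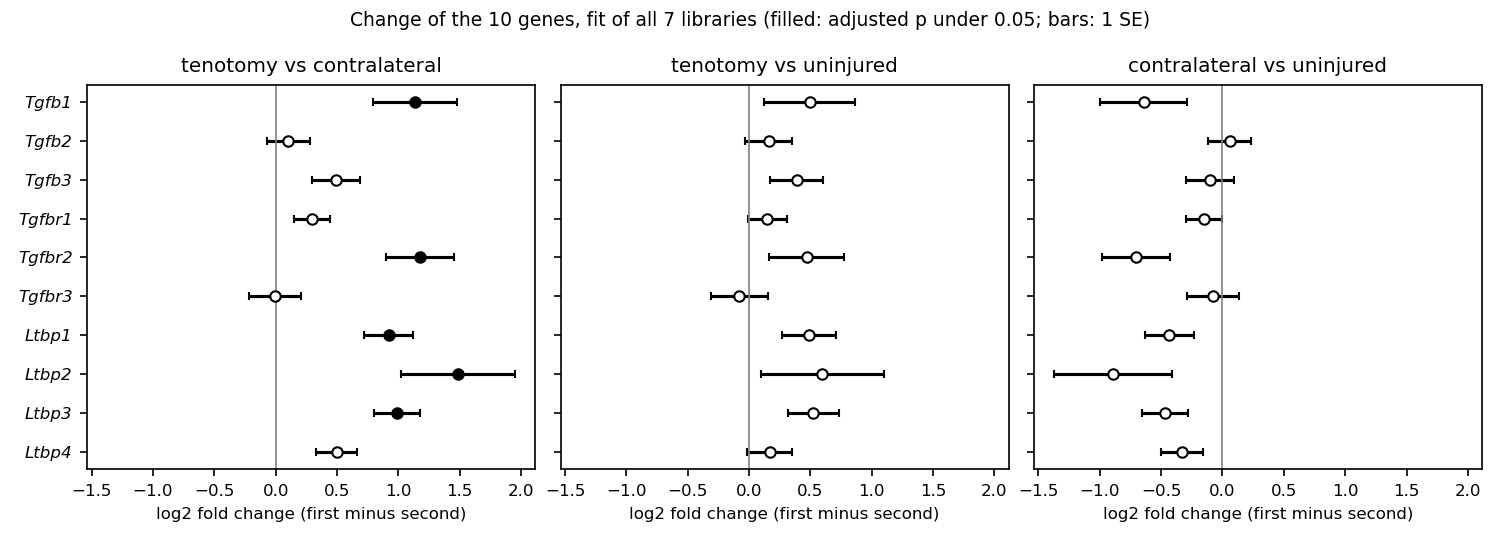
Log2 fold change (first group minus second) of the 10 genes in the 3 comparisons from the fit of all 7 libraries, with bars of 1 SE; filled points passed an adjusted p of 0.05. The 5 filled points all lie in the tenotomy against contralateral panel, to the right of 0.

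Tgfb1, the isoform best known from inflammation and fibrosis, was the ligand that rose. Its gene (ENSMUSG00000002603.15) lies on the plus strand of chromosome 7 from 25687002 to 25705077 (GRCm38, as are all gene coordinates here). The level was 1.57, 2.22 and 1.18 CPM in contralateral libraries 1 to 3, and 3.56 and 3.77 CPM in the tenotomy libraries. Every tenotomy value exceeded every contralateral one. Uninjured libraries 1 and 2 had 3.52 and 1.69 CPM, one beside each of the other groups. The mean went from 1.66 ± 0.527 (SD, n = 3) to 3.66 ± 0.144 CPM (SD, n = 2), a log2 fold change of 1.14 with SE 0.34 (edgeR adjusted p = 0.0419). These levels rest on 38 to 131 counts per library, and when counts were rebuilt from TPM (length-scaled) the edgeR adjusted p was 0.136.

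Tgfb3 (ENSMUSG00000021253.7, chromosome 12 from 86056745 to 86079041, minus strand), a ligand associated with tendon development and with scarring, was 9.14, 6.94 and 7.64 CPM in the contralateral libraries. It was 10.9 and 11.3 CPM in the tenotomy libraries, without overlap. The log2 fold change of 0.49 (SE 0.19) missed the threshold in the fit of all libraries (edgeR adjusted p = 0.093) and passed it in the fit of these groups alone (edgeR adjusted p = 0.00626). The uninjured libraries had 9.95 and 7.02 CPM, so uninjured library 2 fell inside the contralateral range and uninjured library 1 between the groups.

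Tgfb2 (ENSMUSG00000039239.14, chromosome 1 from 186622792 to 186705989, minus strand), the ligand that needs betaglycan for efficient receptor binding, showed no separation. Contralateral libraries had 4.83, 3.56 and 4.21 CPM, tenotomy libraries 4.13 and 4.87 CPM, and uninjured libraries 3.77 and 4.27 CPM. All 3 groups overlapped. The log2 fold change between tenotomy and contralateral was 0.10 with SE 0.17 (edgeR adjusted p = 0.699), and its sign changed with the processing.

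The promoters of the ligand that rose and of the one that showed no separation are printed because they differ in their core motifs. The RefSeq table (GRCm38.p6) gave windows of the 250 bases before a start site for 8 of the 10 members, 12 windows in all; it has no entry for Tgfb3 and Tgfbr3. Both sequences read 5′ to 3′ in the direction of the gene, from chr7:25686752-25687001 (plus strand) and chr1:186705990-186706239 (minus strand), with matches to the GC box GGGCGG or the TATA box TATAAA, on either strand, in capitals.
Tgfb1: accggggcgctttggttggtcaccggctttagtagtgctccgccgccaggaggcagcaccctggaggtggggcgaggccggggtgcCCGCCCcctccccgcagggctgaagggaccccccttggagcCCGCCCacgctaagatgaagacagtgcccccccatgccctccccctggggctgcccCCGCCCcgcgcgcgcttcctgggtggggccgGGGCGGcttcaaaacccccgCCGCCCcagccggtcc
Tgfb2: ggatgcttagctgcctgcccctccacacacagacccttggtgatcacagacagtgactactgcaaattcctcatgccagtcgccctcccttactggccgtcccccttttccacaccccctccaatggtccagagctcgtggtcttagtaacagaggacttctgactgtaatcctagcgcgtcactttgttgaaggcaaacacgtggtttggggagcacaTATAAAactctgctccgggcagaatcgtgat
Tgfb1 held 5 GC boxes and no TATA box, with 75.2% G or C. Tgfb2 held no GC box and 1 TATA box, whose first base is 31 bases before the start, with 53.6% G or C. Of 32851 windows of the same length, 32.7% held a GC box, 12.4% held a TATA box, and the median was 52.4% G or C. These are matches of letters and were not measured as binding sites.

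Tgfbr2, the type II receptor that binds the ligand first, was the only receptor gene that rose in the fit of all libraries. The gene (ENSMUSG00000032440.13) lies on the minus strand of chromosome 9 from 116084293 to 116175360. Contralateral libraries had 14.2, 13.7 and 11.0 CPM, and tenotomy libraries 29.3 and 29.2 CPM. The lowest tenotomy value was thus well above the highest contralateral one. The mean went from 13.0 ± 1.68 (SD, n = 3) to 29.3 ± 0.0622 CPM (SD, n = 2), 2.26-fold, a log2 fold change of 1.18 with SE 0.28 (edgeR adjusted p = 0.0207). The uninjured libraries had 28.0 and 14.3 CPM, the former close to the tenotomy and the latter to the contralateral level. Between 357 and 1078 counts lie behind each value.

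Tgfbr1, the type I kinase that signals to Smad2 and Smad3 (ENSMUSG00000007613.15, chromosome 4 from 47353222 to 47414931, plus strand), differed less. It was 9.11, 8.31 and 7.76 CPM in contralateral and 10.4 and 10.2 CPM in tenotomy libraries, and uninjured libraries 1 and 2 had 9.95 and 8.64 CPM. The tenotomy values lay above the contralateral range by a narrow margin. The log2 fold change of 0.30 (SE 0.14) did not pass (edgeR adjusted p = 0.155), whereas the fit of these groups alone gave an edgeR adjusted p of 0.0384.

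Tgfbr3, betaglycan (ENSMUSG00000029287.14, chromosome 5 from 107106570 to 107289629, minus strand), was 28.5, 24.1 and 19.4 CPM in contralateral, 23.7 and 24.2 CPM in tenotomy, and 22.1 and 28.5 CPM in uninjured libraries. The tenotomy values lay inside the contralateral range. The log2 fold change was -0.003 with SE 0.21 (edgeR adjusted p = 0.994).

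The receptor mixture differed between the groups. The deposited TPM are scaled by transcript length and allow genes of 1 library to be compared; only protein-coding transcripts were summed here, a choice made after short non-coding transcripts were seen to dominate the TPM of some genes. Tgfbr2 made up 30.1% ± 1.8 of the receptor TPM in contralateral (SD, n = 3) and 45.7% ± 1.9 in tenotomy libraries (SD, n = 2). Tgfbr3 made up 42.3% ± 3.1 and 32.5% ± 1.8, and Tgfbr1 27.6% ± 2.3 and 21.8% ± 0.1. None of these groups overlapped. The shares are parts of a whole, so a larger Tgfbr2 share makes the other shares smaller. By CPM the log2 fold change was 0.30 for Tgfbr1 and -0.003 for Tgfbr3, so their smaller shares do not show a fall of these genes. The Tgfbr2 share was 45.5% in uninjured library 1 and 29.6% in uninjured library 2. With all transcripts summed, Tgfbr2 went from 25.3% ± 1.7 to 40.8% ± 1.9, again without overlap. Tgfbr2 TPM divided by Tgfbr1 TPM over all transcripts was 0.848, 0.870 and 0.911 in contralateral and 1.60 and 1.69 in tenotomy libraries, with 1.37 and 0.779 in uninjured libraries 1 and 2. An exact permutation test of 3 against 2 libraries cannot give a two-sided p below 0.2, so these shares carry no test.

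**Figure D3:**
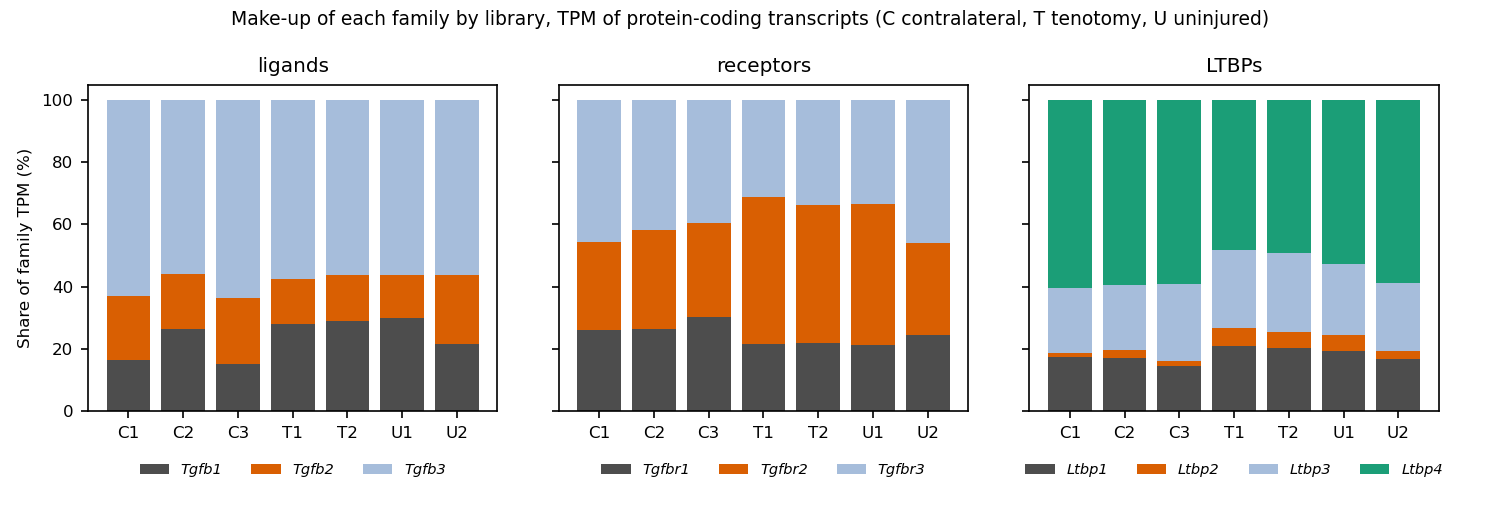
Share (%) of each ligand, receptor and LTBP in its family's TPM of protein-coding transcripts, 1 stacked bar per library (C contralateral, T tenotomy, U uninjured). In the receptor panel Tgfbr2 takes a larger segment in T1, T2 and U1 than in C1 to C3 and U2; in the LTBP panel Ltbp4 takes a smaller one in T1, T2 and U1.

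Among the LTBP genes, Ltbp1, Ltbp2 and Ltbp3 rose. Ltbp3 (ENSMUSG00000024940.11, chromosome 19 from 5740904 to 5758532, plus strand), which binds latent TGF-beta and whose loss affects skeletal growth, was 9.37, 9.02 and 10.4 CPM in contralateral and 18.6 and 19.6 CPM in tenotomy libraries. No values overlapped, and the uninjured libraries had 15.7 and 10.8 CPM. The mean went from 9.59 ± 0.711 (SD, n = 3) to 19.1 ± 0.699 CPM (SD, n = 2), 1.99-fold, with a log2 fold change of 0.99 and SE 0.19 (edgeR adjusted p = 0.0167).

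Ltbp2 (ENSMUSG00000002020.15, chromosome 12 from 84783212 to 84876532, minus strand), the family member that binds fibrillin but not latent TGF-beta, had the largest fold change of the 10. It was 1.20, 2.08 and 2.04 CPM in contralateral and 4.35 and 5.70 CPM in tenotomy libraries. The tenotomy values exceeded all contralateral ones, and the uninjured libraries again split, at 5.17 and 1.48 CPM. The mean went from 1.77 ± 0.497 (SD, n = 3) to 5.03 ± 0.953 CPM (SD, n = 2), with a log2 fold change of 1.49 and SE 0.46 (edgeR adjusted p = 0.0478). Counts were 32 to 171 per library, and limma-voom put the adjusted p at 0.051.

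The transcripts of Ltbp2 differed in this. The protein-coding Ltbp2-201 was estimated at 0.747, 1.40 and 0.841 CPM in contralateral and 3.79 and 5.19 CPM in tenotomy libraries, a ratio of means of 4.51. The retained-intron transcript Ltbp2-207 was at 0.443, 0.668 and 1.19 CPM in contralateral and 0.476 and 0.498 CPM in tenotomy libraries, which overlap. Ltbp2-201 thus held 57.2% ± 13.8 of the gene's counts in contralateral (SD, n = 3) and 89.1% ± 3.05 in tenotomy libraries (SD, n = 2). Such splits are estimates from reads that fit several transcripts, and they were not tested.

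Ltbp4 (ENSMUSG00000040488.17, chromosome 7 from 27305136 to 27337692, minus strand), which also takes part in elastic fibre assembly, had the highest mean TPM of the 10 genes when only protein-coding transcripts were summed. It was 27.0, 25.4 and 24.3 CPM in contralateral, 35.2 and 37.0 CPM in tenotomy and 35.8 and 28.6 CPM in uninjured libraries. The tenotomy and contralateral groups did not overlap. The log2 fold change of 0.50 (SE 0.17) missed the threshold (edgeR adjusted p = 0.0596) and passed it in the fit of these groups alone (edgeR adjusted p = 0.00107). Its share of LTBP TPM from protein-coding transcripts was 59.7% ± 0.7 in contralateral (SD, n = 3) and 48.7% ± 0.7 in tenotomy libraries (SD, n = 2), while Ltbp2 was 1.8% ± 0.8 and 5.5% ± 0.6. Over all transcripts the Ltbp4 share was 41.9% ± 0.526 and 39.3% ± 5.67, and the groups overlapped.

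Ltbp1 (ENSMUSG00000001870.16, chromosome 17 from 75005568 to 75392512, plus strand), the founding member of the family and a main carrier of latent Tgfb1, was 10.2, 9.39 and 8.29 CPM in contralateral and 17.7 and 17.5 CPM in tenotomy libraries. No values overlapped. The uninjured libraries had 15.1 and 10.05 CPM. The mean went from 9.29 ± 0.957 (SD, n = 3) to 17.6 ± 0.17 CPM (SD, n = 2), with a log2 fold change of 0.92 and SE 0.20 (edgeR adjusted p = 0.0177).

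Ltbp1 is transcribed from an upstream and a downstream start, which give the long and the short form of the protein, and the estimated counts from these starts did not move alike. The long protein-coding transcript, Ltbp1-201, begins at base 75005568. It was at 3.26, 4.25 and 3.81 CPM in contralateral and 2.86 and 4.78 CPM in tenotomy libraries, with overlap. The 3 transcripts of the downstream start, which begin at bases 75178810 and 75178911, summed to 5.22, 3.83 and 3.10 CPM in contralateral and 12.4 and 11.6 CPM in tenotomy libraries. No values overlapped here, and the mean went from 4.05 ± 1.08 (SD, n = 3) to 12.0 ± 0.617 CPM (SD, n = 2), 2.96-fold. Uninjured library 1 had 10.1 CPM and uninjured library 2 had 4.34 CPM from the downstream start. Downstream-start counts were 0.812 to 1.60 times those of Ltbp1-201 in the contralateral libraries, 4.34 and 2.42 times in the tenotomy libraries, and 2.84 and 0.966 times in the uninjured libraries. Their share of all Ltbp1 counts was 43.1% ± 7.16 in contralateral (SD, n = 3) and 68.2% ± 2.86 in tenotomy libraries (SD, n = 2).

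**Figure D4:**
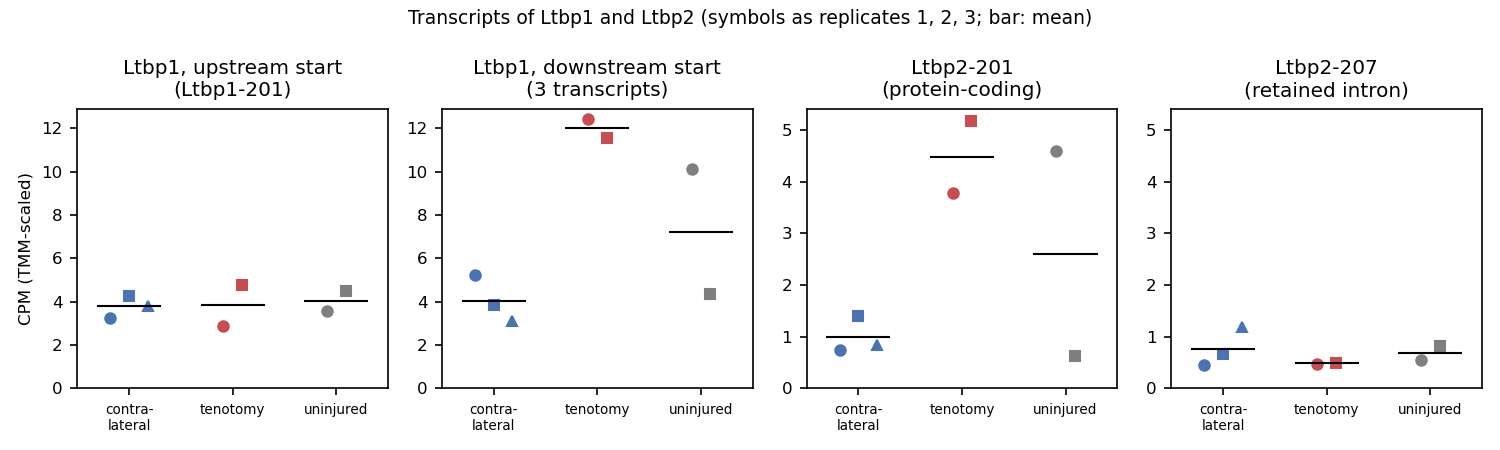
TMM-scaled CPM of the Ltbp1 and Ltbp2 transcripts in the 7 libraries, by group, with a bar for the mean; the Ltbp1 panels share an axis and so do the Ltbp2 panels. Tenotomy points overlap the contralateral ones for Ltbp1-201 and Ltbp2-207 and lie above them for the downstream start of Ltbp1 and for Ltbp2-201.

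The windows before both Ltbp1 starts are printed because the transcripts from them behaved differently. They are RefSeq sequence of GRCm38.p6 on the plus strand, at chr17:75005279-75005528 and chr17:75178531-75178780, 5′ to 3′, with the SMAD element CAGACA (or TGTCTG, its reverse complement) in capitals.
Ltbp1 upstream: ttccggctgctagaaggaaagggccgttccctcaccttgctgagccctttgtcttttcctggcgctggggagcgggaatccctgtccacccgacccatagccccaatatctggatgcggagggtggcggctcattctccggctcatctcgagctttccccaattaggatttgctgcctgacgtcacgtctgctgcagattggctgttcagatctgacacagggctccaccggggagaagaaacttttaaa
Ltbp1 downstream: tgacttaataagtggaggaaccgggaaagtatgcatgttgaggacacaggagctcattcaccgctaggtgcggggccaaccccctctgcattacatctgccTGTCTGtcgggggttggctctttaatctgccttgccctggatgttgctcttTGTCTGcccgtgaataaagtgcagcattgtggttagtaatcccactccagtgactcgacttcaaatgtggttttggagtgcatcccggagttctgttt
The downstream window held 2 SMAD elements as spelled here, beginning 149 and 98 bases before the RefSeq start, and the upstream window held none. The shorter string GTCTG, a part of TGTCTG, does occur in the upstream window, so the contrast holds for the full string only. These are matches of letters and were not measured as binding sites. At least 1 full SMAD element occurred in 17.1% of the 32851 windows. The upstream window had 56.8% G or C and 12 CpG dinucleotides, the downstream window 50.8% and 7. Neither held a TATA box, a GC box or the AP-1 motif TGANTCA, which occurred in 6.75% of windows. Elsewhere among the 12 member windows, the SMAD element was found in Tgfb2 (204 bases before the start) and in 1 of the Tgfbr1 windows (203 bases before it).

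When deposited TPM were turned back into length-scaled counts, Ltbp1 changed by 0.29 on the log2 scale (edgeR adjusted p = 0.43) in place of 0.92. Ltbp1-207, a non-coding transcript of 519 bases, held 4.0% to 15.8% of the gene's counts and 41.8% to 79.4% of its TPM.

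By TPM of protein-coding transcripts, Ltbp4 ranked first and Ltbp2 last in all 3 groups. Over all transcripts Ltbp2 was again last, but in contralateral tendon Ltbp1 ranked 1 (0.873 ± 0.140 TPM; SD, n = 3) and Ltbp4 ranked 2 (0.863 ± 0.117 TPM), with overlap, whereas Ltbp1 ranked 7 by protein-coding transcripts. In contralateral tendon the order of mean protein-coding TPM was Ltbp4 (0.743 ± 0.127), Tgfbr3 (0.585 ± 0.195), Tgfbr2 (0.410 ± 0.102), Tgfbr1 (0.372 ± 0.0746), Tgfb3 (0.357 ± 0.0777), Ltbp3 (0.272 ± 0.0183), Ltbp1 (0.205 ± 0.0501), Tgfb2 (0.116 ± 0.0259), Tgfb1 (0.114 ± 0.0440) and Ltbp2 (0.0230 ± 0.0114; SD, n = 3). Neighbours from Ltbp4 to Tgfb3 in that order overlapped between libraries, as did Tgfb2 and Tgfb1. In tenotomy tendon Tgfbr2 was in the second place, at 0.891 ± 0.0685 TPM (SD, n = 2), overlapping Ltbp4 and above Tgfbr3 at 0.637 ± 0.111 TPM without overlap. Tgfb1 stood above Tgfb2 there, at 0.243 ± 0.0341 and 0.125 ± 0.0193 TPM, also without overlap. Neither gap held over all transcripts, where the tenotomy libraries had 0.843 and 0.940 TPM of Tgfbr2 against 0.628 and 0.885 of Tgfbr3, and 0.317 and 0.339 TPM of Tgfb1 against 0.161 and 0.340 of Tgfb2. Ltbp3, Tgfb3, Ltbp1 and Tgfbr1 followed each other between 0.529 and 0.425 TPM, each overlapping the next. In the uninjured group, whose libraries lay far apart, the means ran from 0.988 TPM for Ltbp4 to 0.0720 TPM for Ltbp2.

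Compared with uninjured mice, no member rose or fell in either injured-animal group in the edgeR fit of all 7 libraries, and neither did any other gene (0% of genes called in each comparison). These comparisons share the uninjured libraries with each other, and each shares its other group with the comparison above. For tenotomy against uninjured, 1 member had an unadjusted p under 0.05 (Ltbp3, log2 fold change 0.52 with SE 0.21, edgeR adjusted p = 0.454), beside 10.9% of all genes. DESeq2 called 0 members, beside 0.905% of all genes, and gave no adjusted p for 3 of them (Tgfb1, Tgfb2 and Ltbp2); limma-voom called 0 members and 0 genes. Both tenotomy libraries lay above both uninjured libraries in 6 members and below them in none, beside 20.1% and 20.4% of all genes. For contralateral against uninjured, 2 members had an unadjusted p under 0.05, beside 19.2% of all genes. These were Tgfbr2 (-0.71, SE 0.28, edgeR adjusted p = 0.241) and Ltbp3 (-0.47, SE 0.19, edgeR adjusted p = 0.246). All contralateral values lay below both uninjured values in 3 members (Tgfbr2, Ltbp3 and Ltbp4), beside 16.6% of genes. DESeq2 called 0 members here, beside 1.39% of all genes, with no adjusted p for Tgfb1, and limma-voom called 0 members and 0 genes.

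Each of these comparisons turned on which uninjured library was kept. Without uninjured library 1, edgeR called Tgfb1, Tgfb3, Tgfbr2, Ltbp1, Ltbp2 and Ltbp3 higher in tenotomy tendon, 6 of 10, beside 11.4% of all genes in that direction. The log2 fold changes of these 6 ran from 0.66 (Tgfb3) to 1.76 (Ltbp2), and 0 members were called between contralateral and uninjured. Without uninjured library 2, edgeR called 0 members between tenotomy and uninjured. It then called Tgfb1, Tgfbr2, Ltbp1, Ltbp2, Ltbp3 and Ltbp4 lower in contralateral than in uninjured tendon, 6 of 10, beside 15% of all genes in that direction, with log2 fold changes from -1.52 (Ltbp2) to -0.48 (Ltbp4). In each of these fits the uninjured group is a lone library, assumed to vary like the others. Summed muscle markers differed between these uninjured libraries as given above, as did macrophage markers, and their part in the result was not tested.

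Other genes of the pathway were compared between tenotomy and contralateral tendon in lists set by function, starting with proteins that hold or process latent TGF-beta. The lists were chosen with earlier results of these data known, so their counts are a description. Of 7 latency partners, 6 rose and 0 fell, with a median log2 fold change of 1.73. Over all genes tested, 13.6% rose and 15.4% fell, and the median was -0.001. Fbn2, a fibrillin that LTBPs attach to, went from 0.461 ± 0.0937 (SD, n = 3) to 13.9 ± 0.186 CPM (SD, n = 2), a log2 fold change of 4.89. Fibronectin (Fn1), the matrix scaffold for LTBP deposition, went from 89.7 ± 13.2 to 1029.5 ± 29.9 CPM (log2 3.52). Emilin1, which inhibits processing of the Tgfb1 precursor, went from 1.75 ± 0.678 to 11.7 ± 0.588 CPM (log2 2.76). The 1 that did not pass was Furin, the convertase that cleaves the precursor, at 0.46 on the log2 scale (edgeR adjusted p = 0.0914). These changes are against the contralateral tendon of injured mice, and the uninjured libraries split here too. In uninjured libraries 1 and 2, Fbn2 was at 16.0 and 1.14 CPM, Fn1 at 775 and 88.7 CPM and Emilin1 at 7.87 and 2.41 CPM.

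Of 9 activators of the latent complex, 7 rose and 1 fell (13.6% and 15.4% of all genes), with a median of 2.12. The largest changes were in Mmp14, a membrane-anchored protease (log2 3.97, from 2.68 ± 0.0547 to 42.2 ± 1.66 CPM), and in the gelatinases Mmp9 (log2 2.94, from 0.119 ± 0.0289 to 0.926 ± 0.0368 CPM) and Mmp2 (log2 2.89, from 15.7 ± 1.45 to 116.6 ± 1.23 CPM). Mmp9 was low in every library, so its change rests on few counts. In uninjured libraries 1 and 2, Mmp14 was at 36.5 and 4.23 CPM, Mmp9 at 0.791 and 0.172 CPM and Mmp2 at 110 and 20.5 CPM. Itgb6, the epithelial integrin subunit that pairs with the alpha-v chain, fell from 8.63 ± 0.954 (SD, n = 3) to 1.53 ± 0.183 CPM (SD, n = 2), a log2 fold change of -2.49. Itgav, that alpha-v chain, had a log2 fold change of 0.23 and did not pass (edgeR adjusted p = 0.253).

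Accessory receptors, decoys and ligand-binding proteoglycans changed less. In this list 2 of 7 rose and 0 fell (13.6% and 15.4% of all genes), with a median of 0.46. Biglycan (Bgn), a matrix proteoglycan that binds TGF-beta, had a log2 fold change of 2.66, and Cd109, a co-receptor that restrains signalling, 1.31. Among 10 Smads and their regulators 4 rose and 0 fell (13.6% and 15.4% of all genes), with a median of 0.34. Those with the largest changes were the co-repressor Tgif1 (log2 1.46), Pmepa1, a feedback inhibitor induced by TGF-beta (log2 1.06), and the Smad repressor Skil (log2 0.94), and the remaining one was Ski (log2 0.66). In the fit of the tenotomy and contralateral libraries alone, 5 rose and 2 fell, beside 22.1% and 24.1% of all genes. The 2 were Smad7, the inhibitory Smad (-0.74, edgeR adjusted p = 0.00239 there and 0.0571 in the fit of all libraries), and Smad3 (-0.27, edgeR adjusted p = 0.0498 and 0.199).

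Of 7 genes widely used as TGF-beta response genes, 5 rose and 1 fell (13.6% and 15.4% of all genes), with a median of 2.43. Postn, encoding periostin, went from 9.42 ± 1.48 (SD, n = 3) to 387 ± 7.33 CPM (SD, n = 2), a log2 fold change of 5.36. The collagens Col3a1 and Col1a1 changed by 3.39 and 2.55 on the log2 scale. In uninjured libraries 1 and 2, Postn was at 278 and 13.7 CPM and Col3a1 at 1808 and 384 CPM. Col1a1 was at 2357 and 2214 CPM there, both near the tenotomy mean of 2574.5 CPM and far from the contralateral mean of 439 CPM. Acta2, the smooth muscle actin of myofibroblasts and vessel walls, fell from 34.5 ± 4.89 to 15.4 ± 0.366 CPM (log2 -1.16). Ccn2, known as connective tissue growth factor, stood at 0.63 on the log2 scale and did not pass (edgeR adjusted p = 0.185). The edgeR adjusted p of the called genes in these lists lay between 0.0152 and 0.0264. Leaving out any 1 contralateral or tenotomy library from the edgeR fit of all 7 left 0 genes called in each list, since it left none of all genes.

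**Figure D5:**
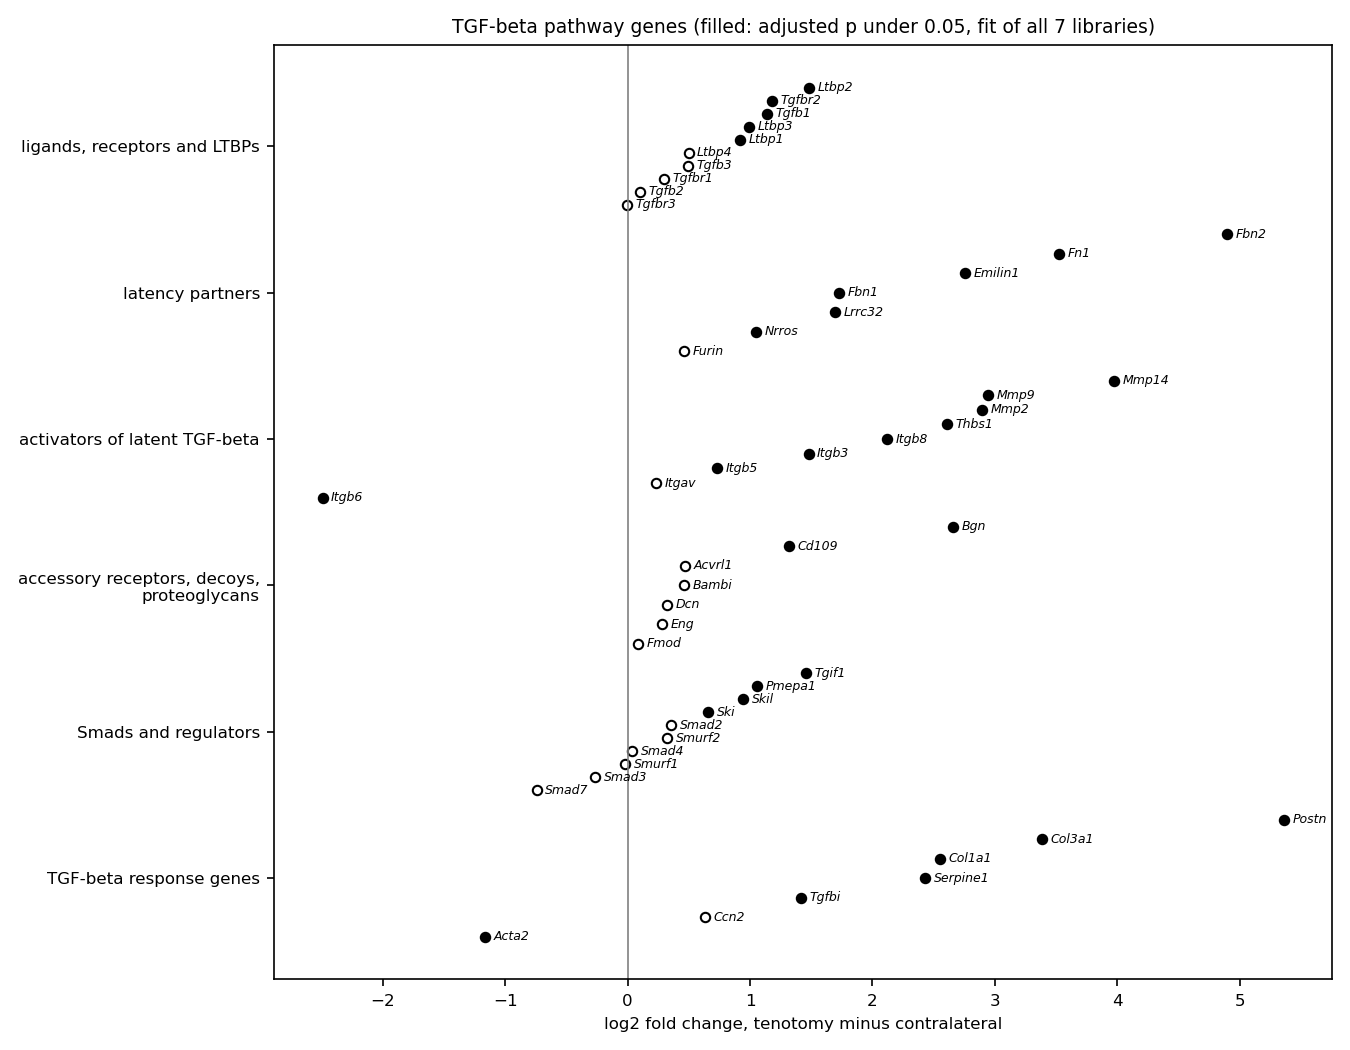
Log2 fold change (tenotomy minus contralateral) of the 10 genes and of 5 lists of other TGF-beta pathway genes, 1 point per gene, sorted within a list; filled points passed an adjusted p of 0.05 in the fit of all 7 libraries. Latency partners, activators and response genes reach further to the right than the ligands, receptors and LTBPs, and the filled points left of 0 are Itgb6 and Acta2.

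Genes whose pattern over the 7 libraries was most like that of each ligand were found by the distance between log2 CPM values, each gene centred on its own mean, among about 2020 genes with a mean log2 CPM of at least 3. For Tgfb1 the nearest were the receptor gene Tgfbr2 (distance 0.462), Cnn3 (0.487) and Iqgap1 (0.493). For Tgfb3 they were Ppfibp1 (0.213), Furin (0.239), which cleaves the ligand's precursor, and Add3 (0.240). For Tgfb2, which varied little, they included Hip1 (0.268) and Setd2 (0.283). Over 7 libraries that fall into few levels, such likeness is shared by many genes and is a description.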

How the data were processed

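Libraries were made from Trizol and RNeasy RNA with a TruSeq kit, per the labels' protocols. The authors deposited, for each library and transcript, estimated counts and TPM with transcript lengths; kallisto, FastQC 0.11.4 and the build GRCh38 are named in the submitters' processing notes, although the transcript identifiers are mouse Ensembl ones. Of 103639 transcripts, 101510 matched GENCODE M21 (GRCm38) and 2129 stayed as features of their own. Estimated counts were summed per gene and rounded to whole numbers. The edgeR 4.0.16 quasi-likelihood test (R 4.3.3) was fitted to all 7 libraries with 3 group means, TMM scaling, filterByExpr with a minimum count of 10 and Benjamini-Hochberg adjustment over 16028 genes. Alternatives were DESeq2 1.42.0, limma-voom (limma 3.58.1), other scalings and filters, a fit of only the groups compared, a test against a 1.5-fold change and leaving out each library; of these, the leave-one-out fits of only the groups compared and the TPM of protein-coding transcripts were added after the data were seen. The script was tested on simulated counts. Deposited TPM, summed per gene, served to compare genes within a library and, length-scaled, as an alternative to the counts. Groups came from the labels, and replicates are numbered in accession order. The members and lists were chosen with earlier results of these data known. Genes named in each list are up to 3 past the threshold with the largest absolute log2 fold change, and for each ligand the 3 most alike genes; Furin, Itgb6, Itgav, Ski, Smad3, Smad7, Acta2 and Ccn2 were singled out after their values were seen. Not all of these are reported here. Promoter sequences are from RefSeq.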

Additional observations from a re-analysis of the deposited data

How the results depend on the processing

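The number of members called between tenotomy and contralateral tendon was 5; it was 8 in the fit of only these groups, 3 with length-scaled TPM (8.94% of all genes higher) and 0 in the edgeR test against a 1.5-fold change, where 5 members had an unadjusted p under 0.05 and 1565 of all genes passed. Leaving out 1 library gave 0 to 8 members, and 7 to 8 in the fit of only these groups. Between tenotomy and uninjured tendon leaving out 1 library gave 0 to 6, and between contralateral and uninjured 0 to 6. The title-number series as a covariate gave 1 in the latter (Tgfbr2, edgeR adjusted p = 0.0122), which rests on uninjured library 1 and on both tenotomy libraries. No title-number run holds both contralateral and uninjured libraries, so there that comparison passes through the tenotomy libraries. In that fit and comparison 15.4% of all genes were called, 7% lower and 8.39% higher in contralateral tendon. In tenotomy against contralateral, 8 members kept their direction in 23 of 23 settings. The exceptions were Tgfb2 and Tgfbr3, whose log2 fold changes lay near 0. Among the 23 settings, the test against a 1.5-fold change reuses the fold changes of the main fit, so its direction could not differ. Tgfb2 was -0.014 with the title-number series as covariate, -0.14 with length-scaled TPM, -0.026 to 0.21 on leaving out 1 library and -0.0096 to 0.22 (with -0.0051 without contralateral library 2) on doing so in the fit of only these groups. Tgfbr3 was 0.11 with upper quartile scaling, 0.0065 with RLE, 0.0067 with DESeq2, 0.0097 with limma-voom, 0.070 with length-scaled TPM, 0.018 without the 5 dominant features, -0.14 to 0.14 on leaving out 1 library and -0.15 to 0.14 in the fit of only these groups, with 0.0054 without contralateral library 2 and 0.0075 without tenotomy library 1. In tenotomy against uninjured, Tgfbr1 was -0.11 with length-scaled TPM, Tgfbr3 was 0.13 with the title-number series and -0.25 to 0.12 on leaving out 1 library, and Ltbp2 was -0.048 to 1.76 on leaving out 1 library. In contralateral against uninjured, Tgfb2 was -0.018 with upper quartile scaling and -0.047 to 0.17 on leaving out 1 library, Tgfb3 -0.34 to 0.16, Tgfbr3 0.14 with the title-number series and -0.25 to 0.12, Ltbp1 0.15 with length-scaled TPM, and Ltbp2 -1.52 to 0.28 on leaving out 1 library. Except where a library was left out, the cause of these changes was not tested. Upper quartile scaling moved the median of all genes from -0.001 to 0.11. No paired analysis was possible because the labels give no replicate numbers that the groups share. Counts limit Tgfb1 and Ltbp2 most.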

Other observations

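By their share of the gene's counts, the main transcripts of the receptors and of Ltbp4 did not separate the groups as the Ltbp1 starts did. By CPM, Tgfbr1-201, Tgfbr2-201, Tgfbr2-202 and the downstream start of Ltbp4 lay higher in both tenotomy libraries than in any contralateral library. Tgfbr3-201 overlapped by CPM. Tgfbr2-201 held 67.0%, 35.3% and 45.1% of the Tgfbr2 counts in the contralateral libraries and 54.8% and 54.7% in the tenotomy libraries, so its split from Tgfbr2-202 varied as much within a group as between groups. Tgfbr1-201 held 71.5% ± 2.74 of the Tgfbr1 counts in contralateral (SD, n = 3) and 73.5% ± 1.94 in tenotomy libraries (SD, n = 2). The downstream start of Ltbp4 held 95.4% ± 1.06 and 95.9% ± 3.63 of its counts. Adipocyte markers summed to 165.8 to 224.7 CPM in contralateral and 83.5 to 83.7 CPM in tenotomy libraries, and 3 of 6 fell; endothelial markers summed to 52.2 to 57.6 and 47.1 to 47.6 CPM, and 1 of 6 fell. Platelet markers, of interest because platelets carry stored Tgfb1, summed to 1.95 to 2.22 CPM in contralateral and 2.94 to 3.17 CPM in tenotomy libraries; 1 of the 3 tested rose, and Ppbp was at 0 in some libraries. Erythroid markers summed to 44.3 to 50.1 and 65.2 to 69.7 CPM, and 2 of 5 rose. Schwann cell markers summed to 129 to 144 and 90.1 to 92.7 CPM, although 1 of 5 rose and 0 fell. Beside these marker counts, 13.6% of all genes tested rose and 15.4% fell.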
